A study of Mus musculus with 13 samples.

Results

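Mouse blastocysts cultured in KSOM from which the protein and carbohydrate components had been left out (depleted KSOM) were compared with E4.5 blastocysts across all genes. The members were chosen by their labels: 2 depleted KSOM libraries and 2 E4.5 libraries, so 4 of the 13 libraries of the series, with 21808 of 31528 listed genes passing the filter on low counts. KSOM is a simple salt-based medium made for preimplantation embryos. The study asked which treatments bring about embryonic diapause, a reversible arrest before implantation. Depleted KSOM blastocysts were collected at embryonic day 5.5 and E4.5 blastocysts at embryonic day 4.5, and the mothers had a normal diet. All embryos were wild type on the mixed C57BL/6 and DBA2J background B6D2F1, and whole blastocysts were used, so fewer cells of a type and less RNA per cell cannot be told apart. The labels name no group in complete KSOM, and both age and culture differ between the groups, so lack of nutrients, culture and age cannot be told apart. The number of embryos per library and the origin of the replicates are not stated, and p-values therefore measure only the spread between these samples.

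Blastocysts in culture take up amino acids and short carbon compounds, and when amino acids fall short the kinase complex mTORC1 leaves the lysosome surface, protein synthesis slows and the transcription factors TFEB and TFE3 drive genes of lysosomes. Uncharged tRNA activates a second branch, in which ATF4 raises amino acid transporters and synthetic enzymes. A dormant blastocyst is known for low mTORC1 activity, few divisions and use of stored lipid.

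Expression is given as CPM, counts scaled to the same library size, on the scale of trimmed means of M values (TMM), as replicate 1 and replicate 2 of each group. Genes were called at an adjusted p under 0.05 by edgeR's quasi-likelihood test with Benjamini-Hochberg adjustment over all genes tested, and a standard error follows each log2 fold change. Total counts were 72125687 and 68518589 in depleted KSOM and 56038082 and 48834738 in E4.5, and replicates correlated at Spearman's rho of 0.932 in depleted KSOM and 0.937 in E4.5 across genes. Trophectoderm markers were present in all 4 libraries, with 3944 and 5264 CPM in depleted KSOM and 2681 and 4029 CPM in E4.5 for Krt18 and 42.0 and 45.6 CPM in depleted KSOM and 59.0 and 68.1 CPM in E4.5 for Cdx2. The epiblast factor Nanog had 23.2 and 31.5 CPM in depleted KSOM and 44.4 and 37.9 CPM in E4.5. E4.5 replicate 1 stood apart in sex-linked transcripts, which were looked at after the values were seen. Xist had 3.04 and 1.51 CPM in depleted KSOM and 179 and 5.75 CPM in E4.5, while Y-linked Ddx3y had 49.4 and 49.0 CPM in depleted KSOM and 0.159 and 35.8 CPM in E4.5. X-linked genes made up 4.04% of the genes higher in depleted KSOM, 2.9% of those lower and 3.6% of those tested. Of markers of other cells, 7 erythroid genes, near-identical globins included, summed to 379 and 7.12 CPM in depleted KSOM and 17.3 and 5.86 CPM in E4.5, and 13 skeletal muscle genes to 179 and 207 CPM in depleted KSOM and 319 and 175 CPM in E4.5, with 8 of the 13 at 0 in each group. The 11 uterine stroma genes summed to 1.62 and 1.9 CPM in depleted KSOM and 31.1 and 10.6 CPM in E4.5, carried by Vim, with Lum, Hoxa10 and Hoxa11 at 0 in all 4 libraries. Sums for neutrophils, macrophages, uterine epithelium and cumulus cells lay between 3.66 and 18.6 CPM in depleted KSOM and between 0.758 and 21.4 CPM in E4.5. The part of sex and of these cells in the results was not tested, and the ranges given below for lists include the fit without E4.5 replicate 1.

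Depleted KSOM blastocysts differed from E4.5 in 1201 genes, 5.51% of those tested, with 718 higher (3.29%) and 483 lower (2.21%). Counts of the lists below are to be read against these shares. Replicates of the groups did not overlap in 55.0% of all genes tested, and in every called gene. Higher genes had a median log2 fold change of 2.14 and lower genes one of -2.71. With library totals in place of TMM, 273 genes were higher and 707 lower, and the median of all genes then lay at a log2 fold change of -0.41 instead of -0.09. Leaving out 1 of the 4 libraries left between 378 calls (without E4.5 replicate 1) and 540 calls (without E4.5 replicate 2), with 450 and 517 without depleted KSOM replicate 1 and replicate 2. The spread of the lone library that then remained in a group was taken from the other groups.

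The largest rises included genes that E4.5 blastocysts barely transcribed. Gjb2, which encodes the gap junction protein connexin 26, had 119.8 and 161 CPM in depleted KSOM and 0 and 0 CPM in E4.5 (adjusted p = 0.0207). Against a floor of 3 counts per library it was at least 3368-fold higher in depleted KSOM. Bhlhe40, a transcriptional repressor of the stress and clock response, had 194 and 101 CPM in depleted KSOM and 0.518 and 0.84 CPM in E4.5 (log2 fold change 7.76 ± 1.47, adjusted p = 0.011). Elmo1, which helps to activate Rac in engulfment and migration, had 45.7 and 35.4 CPM in depleted KSOM and 0.332 and 0.116 CPM in E4.5 (log2 fold change 7.48 ± 0.99, adjusted p = 0.00231). S100a1, a calcium-binding protein, had 962 and 1117 CPM in depleted KSOM and 14.0 and 6.03 CPM in E4.5 (log2 fold change 6.70 ± 1.01, adjusted p = 0.00409). For these 4 genes both depleted KSOM libraries lay far above both E4.5 libraries, and each call held whichever of the 4 libraries was left out. Pip5k1b, a kinase that makes a membrane phosphoinositide, had 161 and 174 CPM in depleted KSOM and 4.08 and 7.37 CPM in E4.5 (log2 fold change 4.87 ± 0.49, adjusted p = 0.000847). Alpl, tissue-nonspecific alkaline phosphatase, had 1473 and 1479.8 CPM in depleted KSOM and 54.1 and 55.4 CPM in E4.5 (log2 fold change 4.75 ± 0.51, adjusted p = 0.00126). Its replicates were nearly equal within each group. Adh1, an alcohol and retinol dehydrogenase named after its values were seen, was among the most abundant transcripts, with 25650.1 and 22768 CPM in depleted KSOM and 533 and 851 CPM in E4.5 (log2 fold change 5.13 ± 0.75, adjusted p = 0.00358). The E4.5 libraries held it at levels some 35.0 times lower on the fitted scale, and the groups did not overlap.

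Among the largest falls were genes with no count left in depleted KSOM. Pramel5, of the PRAME-like family, had 0 and 0 CPM in depleted KSOM and 113 and 98.3 CPM in E4.5 and was at least 2732-fold lower against the floor (adjusted p = 0.00215). Its near-identical relatives share reads with it, so its own level is uncertain. Tsx, a gene beside the X-inactivation centre, had 0 and 0 CPM in depleted KSOM and 26.6 and 12 CPM in E4.5 and was at least 498-fold lower (adjusted p = 0.00221). Mgarp, a mitochondrial transport protein, had 0 and 0 CPM in depleted KSOM and 55.8 and 33.7 CPM in E4.5 and was at least 1156-fold lower (adjusted p = 0.014). No count of these 3 genes was seen in either depleted KSOM library. Dppa3, also called Stella, which protects maternal methylation marks, had 1.45 and 10.1 CPM in depleted KSOM and 3950.4 and 1482 CPM in E4.5 (log2 fold change -8.88 ± 1.96, adjusted p = 0.0212). The E4.5 libraries differed from each other by a wide margin but both lay far above depleted KSOM. The Dppa3 call dropped out without depleted KSOM replicate 1 (adjusted p = 0.0836).

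**Figure D1:**
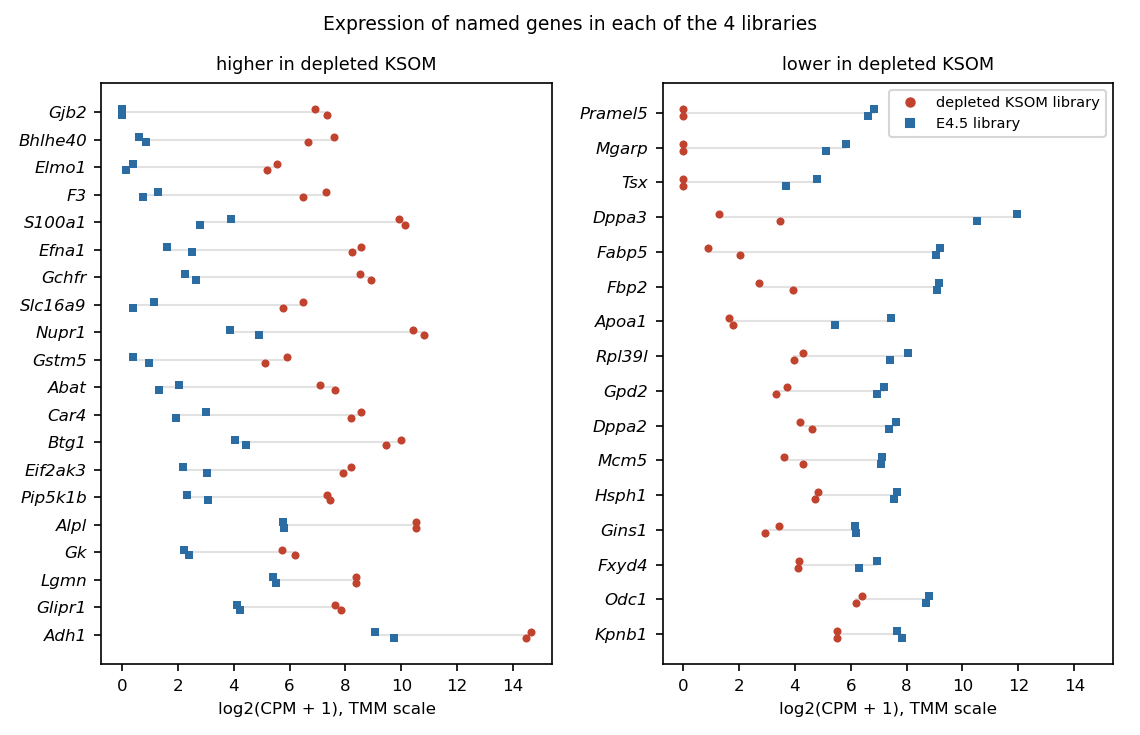
Expression of named genes as log2(CPM + 1) on the TMM scale, with 1 red circle per depleted KSOM library and 1 blue square per E4.5 library. The left panel holds genes that were higher in depleted KSOM and the right panel genes that were lower, and in every row the 2 circles lie apart from the 2 squares.

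Every called gene of the lysosomal hydrolases, the lysosomal membrane, the lysosomal proton pump and mTORC1 nutrient sensing was higher in depleted KSOM. Of 47 tested lysosomal hydrolases 14 were higher and 0 lower, with a list median log2 fold change of 1.23 against -0.09 over all genes. The count was 11 with library totals as scaling and 9 to 13 when 1 of the 4 libraries was left out, with 9 without E4.5 replicate 1. Lgmn, an asparagine-specific protease, had 329 and 332 CPM in depleted KSOM and 41.2 and 44.5 CPM in E4.5 (log2 fold change 2.95 ± 0.35, adjusted p = 0.00184). Fuca1, which removes fucose from glycans, had 396 and 348 CPM in depleted KSOM and 93.0 and 52.4 CPM in E4.5 (log2 fold change 2.36 ± 0.35, adjusted p = 0.00376). In both genes the lower depleted KSOM library exceeded the higher E4.5 library several times over. Gm2a, a lysosomal glycolipid-binding protein named after its values were seen, had 8139.5 and 9991 CPM in depleted KSOM and 659 and 1242 CPM in E4.5 (log2 fold change 3.25 ± 0.49, adjusted p = 0.0041). It was the most abundant of these genes, and its call, like those of Lgmn and Fuca1, held without any 1 of the 4 libraries.

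The lysosomal membrane list had 8 of 26 genes higher and 0 lower (median 0.85), with 3 higher under library totals and 0 to 4 when a library was left out, the lowest count falling without E4.5 replicate 1 and without E4.5 replicate 2. Npc2, which hands cholesterol out of the lysosome, had 592 and 587 CPM in depleted KSOM and 194 and 195 CPM in E4.5 (log2 fold change 1.6 ± 0.27, adjusted p = 0.0066). The Npc2 call dropped out without E4.5 replicate 1 or E4.5 replicate 2 (adjusted p up to 0.0832). Lamp1, the abundant coat protein of the lysosomal membrane, had 1326 and 959 CPM in depleted KSOM and 309 and 378 CPM in E4.5 (log2 fold change 1.74 ± 0.38, adjusted p = 0.0203). Its groups did not overlap, but the call dropped out without E4.5 replicate 1, E4.5 replicate 2 or depleted KSOM replicate 1 (adjusted p up to 0.155) and also with library totals and with limma on log2 FPKM values.

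The proton pump that acidifies lysosomes was higher in 7 of 20 tested V-ATPase subunits and lower in 0 (median 0.93), with 4 under library totals and 3 to 4 when a library was left out. Atp6v1c1, of the peripheral V1 part, had 482 and 329.5 CPM in depleted KSOM and 75.6 and 72.5 CPM in E4.5 (log2 fold change 2.45 ± 0.34, adjusted p = 0.00284). Atp6v1d, the shaft of the rotor, had 482 and 450.0 CPM in depleted KSOM and 109 and 98.3 CPM in E4.5 (log2 fold change 2.17 ± 0.31, adjusted p = 0.0032). Atp6v0b, of the membrane ring, had 858 and 568 CPM in depleted KSOM and 152 and 153 CPM in E4.5 (log2 fold change 2.22 ± 0.33, adjusted p = 0.00353). The E4.5 replicates of these 3 subunits were close to each other and below both depleted KSOM libraries, and the calls held without any 1 library.

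Of the 44 tested genes of mTORC1 nutrient sensing 8 were higher and 0 lower, and 2 to 3 were higher when a library was left out. The list median was 0.16 and became -0.16 with library totals, where 3 genes were higher, so the list as a whole had no direction that held across scalings. The called genes included several of the folliculin and Rag GTPase branch. Rragc, the GTPase that together with RagA or RagB recruits mTORC1, had 202 and 112 CPM in depleted KSOM and 13.8 and 21.2 CPM in E4.5 (log2 fold change 3.16 ± 0.45, adjusted p = 0.00297). Fnip2, a partner of folliculin, had 38.3 and 21.7 CPM in depleted KSOM and 3.96 and 2.09 CPM in E4.5 (log2 fold change 3.31 ± 0.56, adjusted p = 0.00687). The Fnip2 call dropped out without E4.5 replicate 2 (adjusted p = 0.0549). Flcn, folliculin itself, had 85.6 and 34.5 CPM in depleted KSOM and 8.22 and 1.56 CPM in E4.5 (log2 fold change 3.62 ± 0.79, adjusted p = 0.0202). Both depleted KSOM libraries of Flcn lay above both E4.5 libraries, although replicates differed within each group. The Flcn call dropped out without E4.5 replicate 2 or depleted KSOM replicate 1 (adjusted p up to 0.0864) and also in a fit of only these groups. Tfeb, the transcription factor that folliculin controls through the Rag GTPases, had 22.8 and 5.63 CPM in depleted KSOM and 32.1 and 32.9 CPM in E4.5 (adjusted p = 0.392) and did not pass.

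Autophagy genes were called in both directions, with 8 of 46 higher and 1 lower (median 0.50), 2 higher and 3 lower under library totals, and 0 to 4 higher when a library was left out. Optn, a cargo receptor of selective autophagy, had 100.1 and 72.5 CPM in depleted KSOM and 15 and 21.4 CPM in E4.5 (log2 fold change 2.25 ± 0.35, adjusted p = 0.00474), and Bnip3, a mitophagy receptor, had 462 and 512 CPM in depleted KSOM and 96.4 and 134 CPM in E4.5 (log2 fold change 2.08 ± 0.39, adjusted p = 0.0106). Neither gene overlapped between groups, and each call dropped out without E4.5 replicate 1 (adjusted p = 0.0656 for Optn and 0.0909 for Bnip3). Tmem41b, which acts on membrane lipids at autophagosome formation, was the list's lower gene, with 90.0 and 56.8 CPM in depleted KSOM and 283 and 199 CPM in E4.5 (log2 fold change -1.72 ± 0.43, adjusted p = 0.036). The Tmem41b call dropped out without any 1 of the 4 libraries (adjusted p 0.0505 to 0.244).

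**Figure D2:**
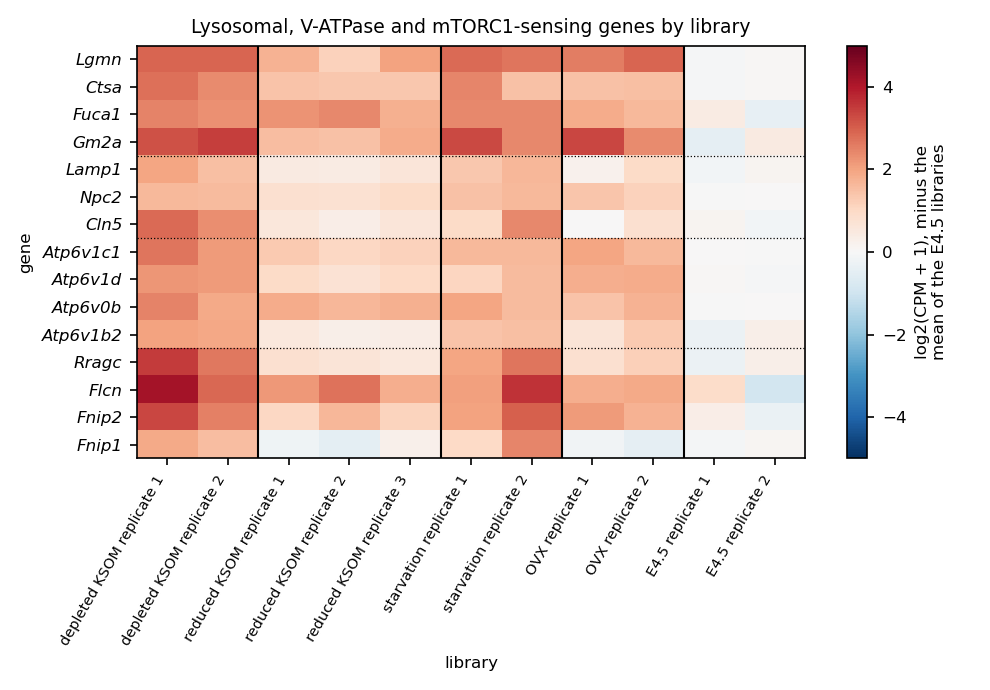
Lysosomal hydrolase, lysosomal membrane, V-ATPase and mTORC1-sensing genes (rows, in that order, separated by dotted lines) in 11 libraries (columns), coloured by log2(CPM + 1) minus the mean of the E4.5 libraries. Both depleted KSOM columns are red for every gene drawn, and the palest rows are Npc2, Lamp1 and Fnip1.

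Many lysosomal promoters carry the CLEAR element, to which TFEB and TFE3 bind, and genes of the ATF4 response carry a composite of C/EBP and ATF letters. Promoter windows, from 250 bases before to 50 bases after the transcription start in RefSeq on GRCm38.p6, were searched on both strands for TCACGTG, the E-box within the CLEAR element, and for TGATGNAA. TCACGTG was in 61 of 538 windows of called higher genes (11.3%), 16 of 324 of called lower genes (4.94%) and 852 of 13340 of all genes tested (6.39%). By list it was in 9 of 40 windows of lysosomal hydrolases (22.5%), 6 of 22 of lysosomal membrane proteins (27.3%) and 4 of 14 of V-ATPase subunits (28.6%). It was in 6 of 36 windows of mTORC1 sensing genes (16.7%) and 4 of 39 of autophagy genes (10.3%). As many lysosomal promoters are known for the CLEAR element, a high share in the lysosomal lists is not a result of these data. TGATGNAA was in 12 of 34 windows of the ATF4 list (35.3%) and in 386 of 13340 of all genes tested (2.89%). It was in 15 of 538 windows of called higher genes (2.79%) and 7 of 324 of called lower genes (2.16%). The ATF4 list holds known targets, several of them known for those letters. Of the 12 genes only Asns and Nupr1 were called higher. Of the genes that held TCACGTG, 2 of 9 hydrolases, 3 of 6 membrane proteins, 1 of 4 V-ATPase subunits, 4 of 6 mTORC1 genes and 0 of 4 autophagy genes were called higher. Stretches of 120 bases are shown for genes called higher in these lists, 5′ to 3′ on the strand of the gene, with the letters found in capitals (either orientation, and overlapping matches merged), to show the letters on which the counts rest. A match is a description of the letters only.
Rragc (chr4:123917264-123917383, plus strand): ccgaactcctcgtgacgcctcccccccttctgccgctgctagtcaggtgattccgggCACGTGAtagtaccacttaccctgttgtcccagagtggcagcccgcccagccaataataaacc
Fnip1 (chr11:54438047-54438166, plus strand): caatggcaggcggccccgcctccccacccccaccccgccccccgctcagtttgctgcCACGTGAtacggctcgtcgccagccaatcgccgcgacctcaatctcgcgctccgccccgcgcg
Ctsa (chr2:164833703-164833822, plus strand): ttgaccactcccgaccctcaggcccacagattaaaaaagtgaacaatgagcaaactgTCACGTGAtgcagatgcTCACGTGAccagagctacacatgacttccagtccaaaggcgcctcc
Lamp1 (chr8:13159042-13159161, plus strand): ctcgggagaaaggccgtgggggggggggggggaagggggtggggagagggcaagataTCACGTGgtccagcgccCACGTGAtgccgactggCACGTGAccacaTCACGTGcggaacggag
Asns (chr6:7693169-7693288, minus strand): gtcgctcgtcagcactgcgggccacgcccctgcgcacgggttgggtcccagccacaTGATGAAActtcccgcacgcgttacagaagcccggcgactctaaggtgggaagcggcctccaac
Nupr1 (chr7:126625517-126625636, minus strand): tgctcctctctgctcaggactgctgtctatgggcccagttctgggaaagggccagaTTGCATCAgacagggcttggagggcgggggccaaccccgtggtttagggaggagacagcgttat
The stretch of Lamp1 held 4 matches and that of Ctsa 4, counted on both strands, of which the 4 of Ctsa form 2 palindromes. Those of Rragc, Fnip1, Asns and Nupr1 held 1 each. The first match began 112 bases before the start in Rragc, 75 in Fnip1, 13 in Ctsa, 62 in Lamp1, 23 in Asns and 110 in Nupr1. Fnip1, named for its promoter after its values were seen, had 55.3 and 43.6 CPM in depleted KSOM and 13.1 and 15.2 CPM in E4.5 (log2 fold change 1.80 ± 0.47, adjusted p = 0.0445), with the groups apart. The Fnip1 call dropped out without any 1 of the 4 libraries (adjusted p 0.106 to 0.256) and also with library totals, with limma on log2 FPKM values and with the replicate block.

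**Figure D3:**
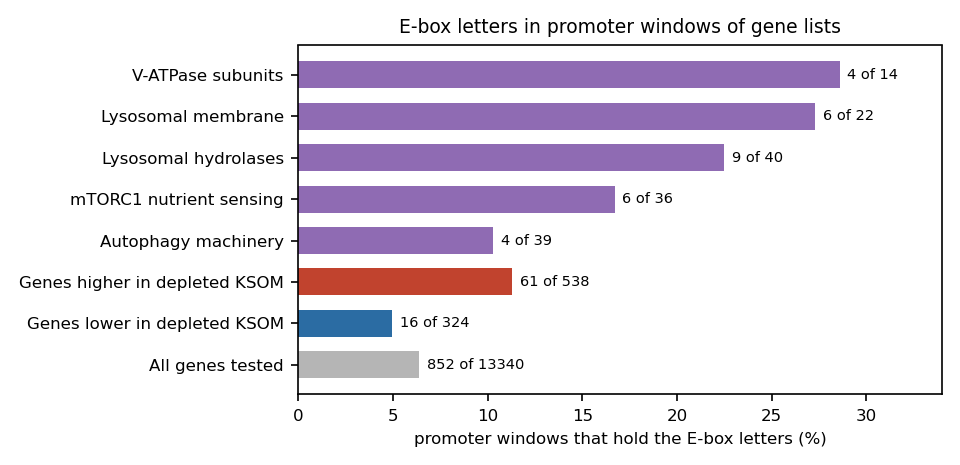
Share of promoter windows that hold the E-box letters on either strand, in percent, with the number of windows beside each bar. Bars for the 4 lysosomal and mTORC1 lists reach 16.7% to 28.6% and the autophagy bar 10.3%, against 6.39% for all genes tested. Lysosomal lists hold genes known for these letters.

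Called genes of the ATF4 response and of amino acid uptake were all higher in depleted KSOM, and those of amino acid breakdown nearly all. Of 39 tested ATF4 response genes 5 were higher and 0 lower (median 0.66), with 2 higher under library totals and 1 to 3 when a library was left out. Nupr1, a chromatin-associated stress regulator, had 1354 and 1789 CPM in depleted KSOM and 13.6 and 29.3 CPM in E4.5 (log2 fold change 6.19 ± 1.09, adjusted p = 0.00794), and both depleted KSOM libraries were far above E4.5. Asns, asparagine synthetase, had 473 and 300.2 CPM in depleted KSOM and 132 and 87.9 CPM in E4.5 (log2 fold change 1.81 ± 0.44, adjusted p = 0.0322). The Asns call dropped out without E4.5 replicate 1, E4.5 replicate 2 or depleted KSOM replicate 1 (adjusted p up to 0.189) and also with library totals and with limma on log2 FPKM values. The Atf4 transcript itself had 60.6 and 41.5 CPM in depleted KSOM and 150.3 and 218 CPM in E4.5 (adjusted p = 0.068). It was lower in both depleted KSOM libraries without passing the test. Ddit3, which encodes CHOP, had 105 and 188 CPM in depleted KSOM and 59.9 and 52.4 CPM in E4.5 and did not pass (adjusted p = 0.0893).

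Amino acid transporters were higher in 6 of 33 tested genes and lower in 0 (median 0.74), with 2 under library totals and 0 to 2 when a library was left out, so leaving out 1 library could remove every call of this list. Slc15a2, a transporter of small peptides, had 541 and 620.5 CPM in depleted KSOM and 63.7 and 162 CPM in E4.5 (log2 fold change 2.36 ± 0.40, adjusted p = 0.00691). The lower depleted KSOM value was above the higher E4.5 value. The Slc15a2 call dropped out without E4.5 replicate 1 (adjusted p = 0.0515). Slc7a3, a carrier of arginine and lysine, had 21.9 and 47.1 CPM in depleted KSOM and 3.11 and 2.14 CPM in E4.5 (log2 fold change 3.71 ± 0.78, adjusted p = 0.017). The Slc7a3 call dropped out without E4.5 replicate 1, E4.5 replicate 2 or depleted KSOM replicate 2 (adjusted p up to 0.0687) and also with limma on log2 FPKM values.

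Of 50 tested enzymes of amino acid degradation 10 were higher and 1 lower (median 0.83), with 6 and 2 under library totals and 5 to 7 higher when a library was left out. Steps of valine, leucine and isoleucine breakdown were among them. Hibadh, a dehydrogenase of the valine path, had 343 and 336 CPM in depleted KSOM and 33.0 and 49.5 CPM in E4.5 (log2 fold change 3.04 ± 0.41, adjusted p = 0.0024). Auh, a hydratase of the leucine path, had 98.8 and 108 CPM in depleted KSOM and 29.9 and 22.4 CPM in E4.5 (log2 fold change 1.98 ± 0.32, adjusted p = 0.00557). The Auh call dropped out without E4.5 replicate 2 (adjusted p = 0.0701). Amt, the aminomethyltransferase of the glycine cleavage system, had 189.7 and 322 CPM in depleted KSOM and 34.5 and 30.0 CPM in E4.5 (log2 fold change 2.99 ± 0.36, adjusted p = 0.0019), above E4.5 in both libraries. Gldc, the decarboxylase of the same system, was lower, with 11.9 and 9.19 CPM in depleted KSOM and 86.6 and 59.7 CPM in E4.5 (log2 fold change -2.79 ± 0.57, adjusted p = 0.0147). The Gldc call dropped out without E4.5 replicate 1, depleted KSOM replicate 1 or depleted KSOM replicate 2 (adjusted p up to 0.0933). Among 25 serine, folate and one-carbon genes 1 was higher and 2 were lower, and 0 to 1 higher and 1 lower when a library was left out. Ahcy, which clears S-adenosylhomocysteine, had 9.81 and 12.9 CPM in depleted KSOM and 103 and 68.8 CPM in E4.5 (log2 fold change -2.92 ± 0.56, adjusted p = 0.0114). The Ahcy call dropped out without depleted KSOM replicate 1 (adjusted p = 0.078). Of 20 cytosolic aminoacyl-tRNA synthetases 2 were higher (median 0.18), and 0 to 1 when a library was left out.

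Each carbohydrate list held called genes in both directions, to be read beside 3.29% higher and 2.21% lower over all genes. Of 11 tested pentose phosphate genes 2 were higher and 1 lower (median -0.64), with 1 higher and 2 lower under library totals. Of 32 tested genes of glucose uptake and glycolysis 2 were higher and 1 lower (median 0.38), and 1 higher and 1 to 2 lower when a library was left out. Ldhb, the heart form of lactate dehydrogenase, had 15 and 14.4 CPM in depleted KSOM and 0.531 and 0.101 CPM in E4.5 (log2 fold change 5.52 ± 0.94, adjusted p = 0.00691). Gapdh, a central step of glycolysis, had 26.3 and 39.7 CPM in depleted KSOM and 225 and 242 CPM in E4.5 (log2 fold change -2.82 ± 0.44, adjusted p = 0.00472), and its many processed copies in the genome make its level uncertain. The glucose transporter Slc2a3 had 635 and 560.5 CPM in depleted KSOM and 189.7 and 257 CPM in E4.5 (log2 fold change 1.42 ± 0.34, adjusted p = 0.0317). The Slc2a3 call dropped out without any 1 of the 4 libraries (adjusted p 0.0921 to 0.265) and also with library totals and with limma on log2 FPKM values. Hexokinase Hk2 had 662 and 778 CPM in depleted KSOM and 350.2 and 510.0 CPM in E4.5 and did not pass (adjusted p = 0.37), nor did the glucose transporter Slc2a1, with 33.4 and 39.3 CPM in depleted KSOM and 16.1 and 26.3 CPM in E4.5 (adjusted p = 0.365). Of 26 gluconeogenesis and glycogen genes 2 were higher and 1 lower, and 0 to 1 higher and 0 to 1 lower when a library was left out. Fbp2, a fructose-bisphosphatase of gluconeogenesis, had 5.65 and 14.2 CPM in depleted KSOM and 566 and 540.0 CPM in E4.5 (log2 fold change -5.80 ± 1.17, adjusted p = 0.0139). Both depleted KSOM libraries were far below E4.5. The Fbp2 call dropped out without depleted KSOM replicate 1 (adjusted p = 0.0694). Enzymes at both ends of glycerol 3-phosphate were called, in opposite directions. Gk, which makes it from glycerol, had 52.6 and 73.0 CPM in depleted KSOM and 3.65 and 4.26 CPM in E4.5 (log2 fold change 3.99 ± 0.40, adjusted p = 0.000847). Gpd2, the mitochondrial enzyme that oxidises it, had 12.3 and 9.04 CPM in depleted KSOM and 144 and 123 CPM in E4.5 (log2 fold change -3.64 ± 0.43, adjusted p = 0.00179). Neither gene overlapped between the groups, and both calls held without any 1 library.

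Several mitochondrially encoded mRNAs were higher, and no nuclear gene of the same complexes passed the test, although the lists were not compared by a test of their own. Of 13 mitochondrially encoded mRNAs 7 were higher and 0 lower (median 1.36), with 4 under library totals and 2 to 3 when a library was left out. By edgeR's quasi-likelihood test 0 of 71 nuclear genes of oxidative phosphorylation were higher and 0 lower (median -0.10), in a list without Sdhd, which is given below. At an unadjusted p under 0.05 there were 5, and DESeq2 called 1 higher and 1 lower. mt-Cytb, of the respiratory complex that passes electrons to cytochrome c, had 22499.6 and 25162 CPM in depleted KSOM and 5128 and 4188 CPM in E4.5 (log2 fold change 2.36 ± 0.41, adjusted p = 0.00781). mt-Atp6, of the ATP synthase, had 13068 and 14367 CPM in depleted KSOM and 1048 and 2999 CPM in E4.5 (log2 fold change 2.76 ± 0.56, adjusted p = 0.0148). The mt-Atp6 call dropped out without E4.5 replicate 1 (adjusted p = 0.082). It overlaps mt-Atp8 in the mitochondrial genome, so reads of the pair cannot be told apart fully. Both depleted KSOM libraries lay above both E4.5 libraries in both genes. Mitochondrial transcripts took 12.2% and 13.2% of all counts in depleted KSOM and 5.06% and 6.69% in E4.5, and whether this share tracks RNA quality or cell state was not tested. Of 36 genes of pyruvate entry and the citric acid cycle 6 were higher and 0 lower (median 0.53), but 1 under library totals and 0 to 2 when a library was left out. Sdhd, the membrane anchor of succinate dehydrogenase, had 324 and 303 CPM in depleted KSOM and 70.2 and 81.6 CPM in E4.5 (log2 fold change 2.05 ± 0.37, adjusted p = 0.00833). The Sdhd call dropped out without E4.5 replicate 1 (adjusted p = 0.0747).

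Fatty acid oxidation was higher in 7 of 37 tested genes and lower in 0 (median 0.77), with 4 under library totals and 3 to 4 when a library was left out. Crot, the peroxisomal carnitine octanoyltransferase, had 219.8 and 196 CPM in depleted KSOM and 12.6 and 24.7 CPM in E4.5 (log2 fold change 3.48 ± 0.46, adjusted p = 0.00221). Slc22a5, the carnitine importer OCTN2, had 518 and 444 CPM in depleted KSOM and 26.1 and 56.8 CPM in E4.5 (log2 fold change 3.54 ± 0.58, adjusted p = 0.00616). Acadm, the medium-chain acyl-CoA dehydrogenase, had 753 and 733 CPM in depleted KSOM and 129.5 and 160.0 CPM in E4.5 (log2 fold change 2.36 ± 0.39, adjusted p = 0.00657). These 3 calls held without any 1 library, and depleted KSOM was above E4.5 in every pair of libraries. Cpt1a, which loads long-chain fatty acids onto carnitine for mitochondria, had 71.8 and 65.8 CPM in depleted KSOM and 22.5 and 18.7 CPM in E4.5 and did not pass (adjusted p = 0.125). Synthesis genes were mixed, with 2 of 41 higher and 3 lower (median -0.15), and 1 to 3 higher and 1 to 2 lower when a library was left out. Elovl1, an elongase of very long saturated chains, had 129 and 95.3 CPM in depleted KSOM and 9.9 and 14.4 CPM in E4.5 (log2 fold change 3.20 ± 0.55, adjusted p = 0.0073). Scd2, a desaturase that makes monounsaturated fatty acids, had 2.26 and 0.202 CPM in depleted KSOM and 54.3 and 52.7 CPM in E4.5 (log2 fold change -5.44 ± 1.33, adjusted p = 0.0332), nearly absent from depleted KSOM. The Scd2 call dropped out without depleted KSOM replicate 2 (adjusted p = 0.107). Of 40 genes of lipid droplets and lipid uptake 2 were higher and 3 lower, and 0 higher and 1 to 2 lower when a library was left out. Plin2, the coat protein of lipid droplets, had 509 and 502 CPM in depleted KSOM and 172 and 173 CPM in E4.5 (log2 fold change 1.55 ± 0.39, adjusted p = 0.0359). The Plin2 call dropped out without any 1 of the 4 libraries (adjusted p 0.118 to 0.183) and also with a gene length offset, with library totals and with median-of-ratios scaling. The lipid carrier Apoa1 had 2.13 and 2.42 CPM in depleted KSOM and 171 and 42.4 CPM in E4.5 (log2 fold change -5.55 ± 1.20, adjusted p = 0.0197). The Apoa1 call dropped out without depleted KSOM replicate 1 or depleted KSOM replicate 2 (adjusted p up to 0.0873).

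Ribosomal protein genes that were called were all lower in depleted KSOM, beside 2.21% lower over all genes. Of 78 cytosolic ribosomal protein genes 0 were higher and 15 lower, the list median was -1.26, and 2 had a log2 fold change above 0. The number lower was 50 under library totals and 0 to 6 when a library was left out (median -1.49 to -1.01), with 2 without E4.5 replicate 1. Ribosomal protein genes have many processed copies, which can split their reads. Rpl8, of the large subunit, had 240.1 and 402 CPM in depleted KSOM and 1509 and 1350.2 CPM in E4.5 (log2 fold change -2.15 ± 0.40, adjusted p = 0.01). The Rpl8 call dropped out without depleted KSOM replicate 1 (adjusted p = 0.097). Rpl39l, a paralog with high expression in germ cells and pluripotent cells, had 18.6 and 14.8 CPM in depleted KSOM and 266 and 167 CPM in E4.5 (log2 fold change -3.70 ± 0.39, adjusted p = 0.00115), and its call held without any 1 library. Of 52 ribosome biogenesis genes 1 was higher and 5 lower (median -0.35), and 0 to 1 higher and 1 lower when a library was left out. Without E4.5 replicate 1 there was 1 higher and 1 lower. Fbl, fibrillarin, which methylates ribosomal RNA, had 23.6 and 27.7 CPM in depleted KSOM and 141 and 123 CPM in E4.5 (log2 fold change -2.36 ± 0.38, adjusted p = 0.00545), and both depleted KSOM libraries were below both E4.5 libraries. Of 46 translation factors 0 were higher and 3 lower (median -0.33), and 0 when a library was left out.

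**Figure D4:**
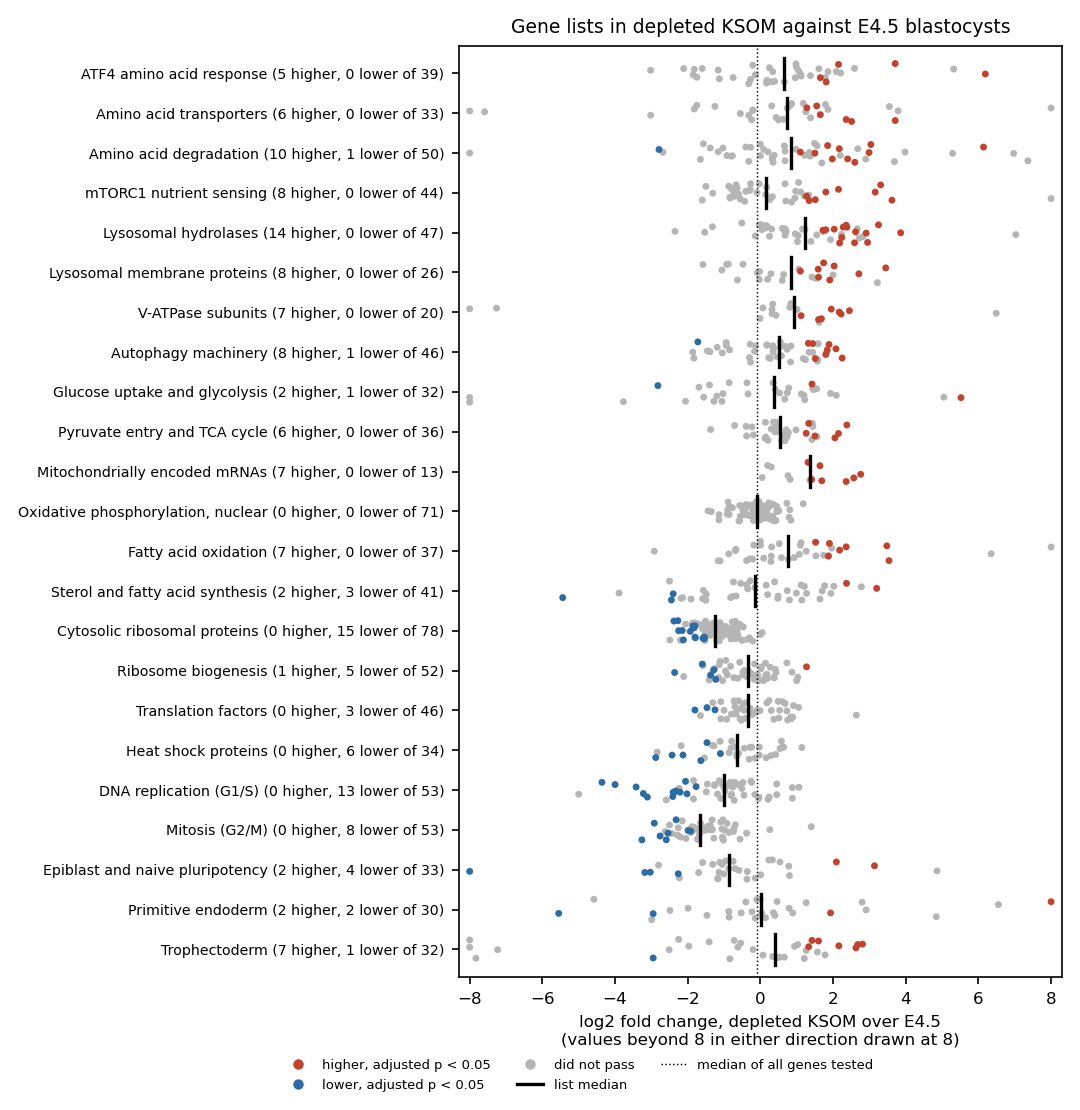
Log2 fold changes of depleted KSOM over E4.5 for the members of 23 gene lists, with 1 point per tested gene, a black bar at the list median and a dotted line at the median of all genes tested. Medians of the lysosomal hydrolase and mitochondrially encoded lists lie above 1, and those of ribosomal proteins, DNA replication and mitosis at or below -1.

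Called genes of the heat shock protein list were all lower, and genes of the unfolded protein response and of oxidative stress were called higher. The shares over all genes were 3.29% higher and 2.21% lower. Of 34 heat shock protein genes 0 were higher and 6 lower (median -0.65), with 8 lower under library totals and 2 to 3 when a library was left out. Hsph1, a nucleotide exchange factor of HSP70, had 27.1 and 25.5 CPM in depleted KSOM and 203 and 184 CPM in E4.5 (log2 fold change -2.88 ± 0.35, adjusted p = 0.0019). Hsp90ab1, the constitutive cytosolic HSP90, had 628 and 658 CPM in depleted KSOM and 2888 and 2752 CPM in E4.5 (log2 fold change -2.13 ± 0.35, adjusted p = 0.00557). Both were lower in each depleted KSOM library than in either E4.5 library, and both calls held without any 1 library. Eif2ak3, which encodes PERK, the kinase that slows translation under stress of the endoplasmic reticulum, had 292 and 240.0 CPM in depleted KSOM and 3.52 and 7.36 CPM in E4.5 (log2 fold change 5.61 ± 0.73, adjusted p = 0.00221). It was 1 of 4 genes higher and 0 lower among 30 tested genes of the unfolded protein response, of which 1 to 2 were higher when a library was left out, and the list median was 0.09 (-0.23 with library totals). Of 40 oxidative stress and glutathione genes 6 were higher and 0 lower (median -0.09), with a median of -0.41 under library totals and 2 to 4 higher and 0 to 2 lower when a library was left out. Without depleted KSOM replicate 2 there were 2 higher and 2 lower, and DESeq2 called 9 higher and 3 lower. Gstm1, a glutathione transferase, had 135 and 199 CPM in depleted KSOM and 10.7 and 7.2 CPM in E4.5 (log2 fold change 4.22 ± 0.72, adjusted p = 0.00706), and its close relatives can share its reads. Hmox1, heme oxygenase, had 40.9 and 62.3 CPM in depleted KSOM and 10.3 and 9.45 CPM in E4.5 (log2 fold change 2.39 ± 0.54, adjusted p = 0.0235). The Hmox1 call dropped out without E4.5 replicate 1, E4.5 replicate 2 or depleted KSOM replicate 2 (adjusted p up to 0.106) and also with library totals and with limma on log2 FPKM values. Of 26 p53 targets 0 were higher and 1 lower, and 0 higher and 0 to 1 lower when a library was left out.

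Every called gene of DNA replication and mitosis was lower in depleted KSOM. Of 53 replication genes 0 were higher and 13 lower (median -1.0), and 6 to 11 were lower when a library was left out. Mcm5, of the replicative helicase, had 11.1 and 18.4 CPM in depleted KSOM and 139 and 135 CPM in E4.5 (log2 fold change -3.22 ± 0.46, adjusted p = 0.00311). Gins1, of the complex that completes that helicase, had 9.71 and 6.72 CPM in depleted KSOM and 69.4 and 72.1 CPM in E4.5 (log2 fold change -3.11 ± 0.46, adjusted p = 0.00376). Cdc6, which loads it onto DNA, had 1.26 and 2.62 CPM in depleted KSOM and 30.7 and 31.3 CPM in E4.5 (log2 fold change -4.0 ± 0.65, adjusted p = 0.00571). For these 3 genes both depleted KSOM libraries were far below both E4.5 libraries, and the calls held without any 1 library. Of 53 mitosis genes 0 were higher and 8 lower with a list median of -1.65. The number lower was 14 under library totals and 0 to 2 when a library was left out, where the median ran from -2.49 to -1.10. Cdca3, a trigger of mitotic entry, had 27.7 and 17.6 CPM in depleted KSOM and 169.8 and 174 CPM in E4.5 (log2 fold change -2.92 ± 0.68, adjusted p = 0.0265). The Cdca3 call dropped out without depleted KSOM replicate 1 or depleted KSOM replicate 2 (adjusted p up to 0.134). Of 32 FOXO and growth arrest genes 1 was higher and 1 lower, near the 5.51% called over all genes, and 1 higher and 0 to 1 lower when a library was left out. Odc1, the first enzyme of polyamine synthesis and a MYC target, had 84.0 and 72.4 CPM in depleted KSOM and 447 and 411 CPM in E4.5 (log2 fold change -2.46 ± 0.35, adjusted p = 0.00289). Btg1, which slows proliferation by promoting mRNA decay, had 1014 and 706 CPM in depleted KSOM and 15.6 and 20.5 CPM in E4.5 (log2 fold change 5.57 ± 0.78, adjusted p = 0.00289). The groups were apart in both, Odc1 lower and Btg1 higher in depleted KSOM, and both calls held without any 1 library. Of 26 MYC network genes 4 were lower and 0 higher (median 0.02, or -0.31 with library totals), and 0 higher and 1 to 3 lower when a library was left out.

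Called lineage genes lay in both directions, beside 3.29% higher and 2.21% lower over all genes, and the factors Nanog, Sox2 and Cdx2 did not pass the test. Of 33 epiblast and naive pluripotency genes 2 were higher and 4 lower (median -0.87), and 1 higher and 2 to 4 lower when a library was left out. Sox2 had 6.67 and 7.62 CPM in depleted KSOM and 9.43 and 8.87 CPM in E4.5 (adjusted p = 0.77) and did not pass, and neither did Nanog (adjusted p = 0.738). Dppa4, a chromatin partner of Dppa2, had 18.8 and 15.4 CPM in depleted KSOM and 177 and 102 CPM in E4.5 (log2 fold change -3.03 ± 0.59, adjusted p = 0.0121). The Dppa4 call dropped out without depleted KSOM replicate 1 or depleted KSOM replicate 2 (adjusted p up to 0.0663). Nr0b1, which encodes the naive pluripotency factor DAX1, was higher, with 35.8 and 34.7 CPM in depleted KSOM and 1.93 and 6.06 CPM in E4.5 (log2 fold change 3.14 ± 0.65, adjusted p = 0.016). The Nr0b1 call dropped out without E4.5 replicate 1 (adjusted p = 0.115). Of 15 primed pluripotency and gastrulation genes 0 were higher and 1 was lower, and 0 higher and 0 to 2 lower when a library was left out. That gene was Dnmt3b, a de novo DNA methyltransferase, with 27.6 and 40.5 CPM in depleted KSOM and 189 and 169.6 CPM in E4.5 (log2 fold change -2.40 ± 0.43, adjusted p = 0.00859). The Dnmt3b call dropped out without depleted KSOM replicate 1 (adjusted p = 0.0774).

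Trophectoderm genes were higher in 7 of 32 and lower in 1 (median 0.40), with 3 higher under library totals and 2 to 4 when a library was left out. Tspan8, a tetraspanin of the cell surface, had 2129.6 and 2404 CPM in depleted KSOM and 272 and 436 CPM in E4.5 (log2 fold change 2.68 ± 0.38, adjusted p = 0.00311). Lgals3, a galectin that binds cell surface glycans, had 378 and 501 CPM in depleted KSOM and 79.9 and 62.3 CPM in E4.5 (log2 fold change 2.63 ± 0.35, adjusted p = 0.00229). Both lay above E4.5 in both depleted KSOM libraries, and both calls held without any 1 library. The trophectoderm factor Cdx2 did not pass (adjusted p = 0.442). The trophectoderm factor Gata3, named after its values were seen, had 617.6 and 483.6 CPM in depleted KSOM and 194.0 and 245.5 CPM in E4.5. It was called higher (log2 fold change 1.33 ± 0.35, adjusted p = 0.0465). The Gata3 call dropped out without any 1 of the 4 libraries. It also dropped out with a gene length offset, library totals, median-of-ratios scaling and limma on log2 FPKM values. Primitive endoderm genes were higher in 2 and lower in 2 of 30 (median 0.01, or -0.30 with library totals), and 1 to 2 higher and 0 to 2 lower when a library was left out. Gata6, a primitive endoderm factor, had 37.2 and 48.7 CPM in depleted KSOM and 130.8 and 106.8 CPM in E4.5 and did not pass (adjusted p = 0.0661). Counts of these lineage lists, too, stand beside 3.29% higher and 2.21% lower over all genes. The endocytic pair of the primitive endoderm list moved in opposite directions. Dab2, an adaptor for cargo of clathrin-coated pits, had 1070.1 and 885 CPM in depleted KSOM and 215 and 298 CPM in E4.5 (log2 fold change 1.93 ± 0.33, adjusted p = 0.00691). The Dab2 call dropped out without E4.5 replicate 1 (adjusted p = 0.0848). Lrp2, the receptor megalin that Dab2 helps to internalise, had 53.2 and 50.1 CPM in depleted KSOM and 414 and 385 CPM in E4.5 (log2 fold change -2.95 ± 0.55, adjusted p = 0.0104). The Lrp2 call dropped out without depleted KSOM replicate 1 or depleted KSOM replicate 2 (adjusted p up to 0.0509).

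At the epithelial surface 1 connexin was higher and another lower, and genes of ion transport were called in both directions. Over all genes 3.29% were higher and 2.21% lower, and the integrin count lies near these shares. Of 39 junction genes 4 were higher and 1 was lower (median 0.55), and 1 to 4 higher and 1 lower when a library was left out. While Gjb2 appeared in depleted KSOM, Gja1, which encodes connexin 43, fell, with 26.3 and 16.2 CPM in depleted KSOM and 144 and 112 CPM in E4.5 (log2 fold change -2.59 ± 0.41, adjusted p = 0.00474), and its call held without any 1 library. Of 30 genes of the sodium pump, water channels and acid-base transport 3 were higher and 2 lower, and 1 to 3 higher and 1 to 2 lower when a library was left out. Car4, a carbonic anhydrase on the cell surface, had 379.8 and 292 CPM in depleted KSOM and 7.08 and 2.83 CPM in E4.5 (log2 fold change 6.08 ± 0.77, adjusted p = 0.00215). Fxyd4, a regulatory subunit of the sodium pump, had 16.8 and 16.5 CPM in depleted KSOM and 122 and 78.3 CPM in E4.5 (log2 fold change -2.59 ± 0.39, adjusted p = 0.00392). The groups were apart in both genes, and both calls held without any 1 library. Serpine2, an inhibitor of plasmin and thrombin, had 446 and 233 CPM in depleted KSOM and 30.0 and 48.6 CPM in E4.5 (log2 fold change 3.11 ± 0.43, adjusted p = 0.00258), as 1 of 3 genes higher and 1 lower among 29 of coagulation and protease control (median 1.06), and 2 to 3 higher and 0 lower when a library was left out. Of 35 integrins and adhesion genes 0 were higher and 1 was lower, and 0 to 1 higher and 0 to 1 lower when a library was left out. That gene, Itga6, had 12.5 and 15.6 CPM in depleted KSOM and 57.7 and 60.6 CPM in E4.5 (log2 fold change -2.07 ± 0.44, adjusted p = 0.018). The Itga6 call dropped out without any 1 of the 4 libraries (adjusted p 0.0725 to 0.148).

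The same fit gave direct comparisons of depleted KSOM with the other day 5.5 groups of the same strain, which share the depleted KSOM libraries. These were blastocysts in KSOM with lowered amounts of arginine, isoleucine, leucine, lysine, lactate and glucose (reduced KSOM, n = 3), from a starvation treatment (starvation, n = 2) and from ovariectomised mothers (OVX, n = 2). Depleted KSOM differed from reduced KSOM in 1263 genes (5.79% of those tested; 2.8% higher), from starvation in 50 (0.229%; 0.0642% higher) and from OVX in 148 (0.679%; 0.289% higher). These counts were fragile. Leaving out 1 library gave 121 to 225 calls against reduced KSOM, 15 to 482 against starvation and 41 to 934 against OVX. Against reduced KSOM every library left out removed most calls, and the lowest count came without reduced KSOM replicate 3. Against starvation the lowest came without depleted KSOM replicate 1, with 18 without its replicate 2, and the highest without starvation replicate 2. Against OVX the lowest came without depleted KSOM replicate 1, with 43 without its replicate 2 and 97 without OVX replicate 1, and the highest without OVX replicate 2. In edgeR fits of only the groups compared, no gene passed against starvation or OVX, with 1680 and 2795 genes at an unadjusted p under 0.05, while DESeq2 called 1600 and 2339.

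Alpl had 1473 and 1479.8 CPM in depleted KSOM, 232, 197 and 225 in reduced KSOM, 395 and 245 in starvation and 85.7 and 184 in OVX. It was higher than in reduced KSOM (log2 fold change 2.76 ± 0.40, adjusted p = 0.00645) and than in OVX (log2 fold change 3.45 ± 0.48, adjusted p = 0.0111), with all 3 reduced KSOM and both OVX libraries below both depleted KSOM libraries. Gk had 52.6 and 73.0 CPM in depleted KSOM, 18.2, 15.1 and 19.2 in reduced KSOM, 25.2 and 32.0 in starvation and 4.28 and 5.06 in OVX, and was higher than in OVX (log2 fold change 3.75 ± 0.40, adjusted p = 0.00304). The starvation and reduced KSOM libraries lay between depleted KSOM and OVX. Eif2ak3 had 292 and 240.0 CPM in depleted KSOM, 23.0, 16.7 and 18.7 in reduced KSOM, 29.7 and 164 in starvation and 11.3 and 16.9 in OVX, and was higher than in reduced KSOM (log2 fold change 3.77 ± 0.57, adjusted p = 0.00722). Starvation replicate 2 came closest to depleted KSOM. Fxyd4 had 16.8 and 16.5 CPM in depleted KSOM, 270.3, 205 and 262 in reduced KSOM, 61.6 and 101 in starvation and 118 and 157 in OVX. It was lower than in reduced KSOM (log2 fold change -3.89 ± 0.40, adjusted p = 0.00162) and than in OVX (log2 fold change -3.05 ± 0.40, adjusted p = 0.0104). mt-Cytb had 22499.6 and 25162 CPM in depleted KSOM, 7009.9, 7899 and 11632 in reduced KSOM, 4807 and 6594 in starvation and 4281 and 2963 in OVX, and was higher than in OVX (log2 fold change 2.72 ± 0.42, adjusted p = 0.017). Each of these calls held without any 1 library of the groups compared, but those against OVX, like all others, were lost in the fit of only those groups. Other calls of these genes dropped out on leaving out at least 1 library. Fxyd4 was lower than in starvation (log2 fold change -2.29 ± 0.38, adjusted p = 0.037). Gk (1.84 ± 0.32, adjusted p = 0.012) and mt-Cytb (1.43 ± 0.35, adjusted p = 0.037) were higher than in reduced KSOM. Eif2ak3 was higher than in OVX (4.23 ± 0.68, adjusted p = 0.0209).

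Slc15a2 had 541 and 620.5 CPM in depleted KSOM and 59.7, 64.5 and 78.2 CPM in reduced KSOM (log2 fold change 3.11 ± 0.35, adjusted p = 0.00271), so the culture groups did not overlap. Amt had 189.7 and 322 CPM in depleted KSOM and 34.5, 40.8 and 54.7 CPM in reduced KSOM (log2 fold change 2.56 ± 0.31, adjusted p = 0.00278). Gata3, a transcription factor of the trophectoderm named after its values were seen, had 618 and 484 CPM in depleted KSOM and 109.5, 132 and 119 CPM in reduced KSOM (log2 fold change 2.19 ± 0.31, adjusted p = 0.00633). These calls against reduced KSOM held without any 1 library as well, unlike the Gata3 call against E4.5.

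**Figure D5:**
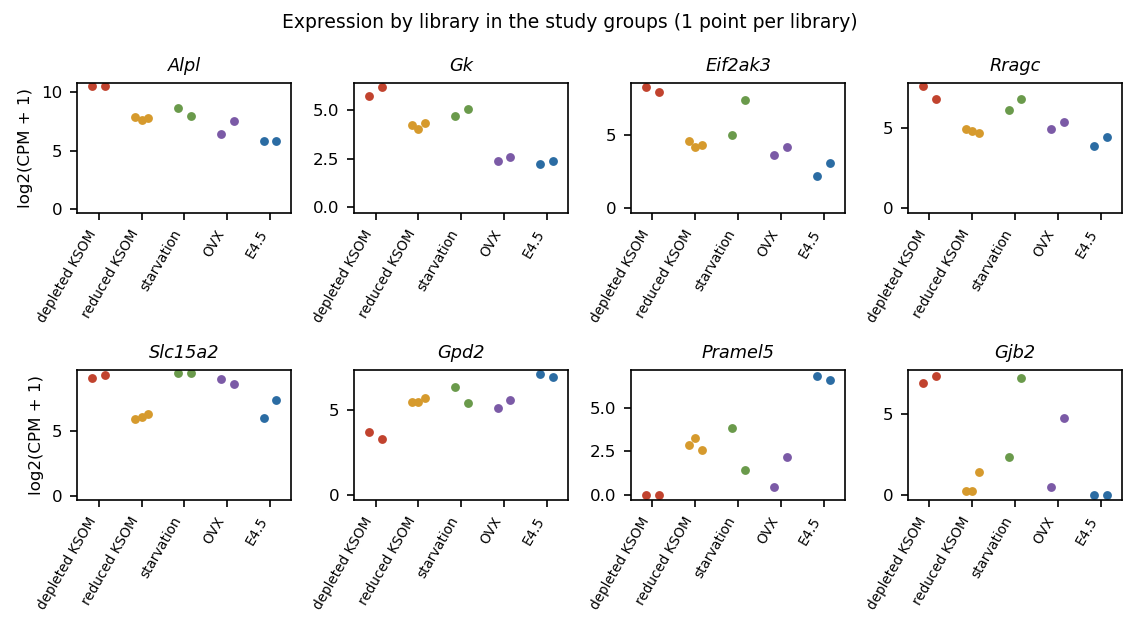
Expression of 8 named genes as log2(CPM + 1), with 1 point per library in depleted KSOM, reduced KSOM, starvation, OVX and E4.5 blastocysts. Alpl, Gk and Eif2ak3 are highest and Gpd2 and Pramel5 lowest in both depleted KSOM libraries.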

How the data were processed

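RNA was sequenced from whole blastocysts with a SMART-Seq v4 ultra-low input kit, per the labels' protocols, without molecular identifiers. Per the submitters' processing notes, reads were handled with cutadapt 1.9, HISAT2 2.0.4 and StringTie 1.3.4d. The annotation, the counting tool and the use of strand are not given in the sources used here. The deposited table holds the authors' estimated counts per gene, all of them whole, beside the authors' FPKM (fragments scaled by transcript length and library size). Between 27.2% and 34.6% of low counts in a library were multiples of 4.

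Deposited estimated counts of all 13 libraries were fitted in 1 model with group means (edgeR 4.0.16, R 4.3.3; filterByExpr, TMM, glmQLFit and glmQLFTest, 7 residual degrees of freedom), and p-values were adjusted over 21808 genes by Benjamini-Hochberg with a threshold of 0.05. Samples were grouped by their labels. Total counts ran from 40678386 to 72125687 over the series. Floors cover counting error only, while standard errors come from the quasi-likelihood fit and include the spread between replicates. The test was checked on simulated counts in which some genes were given a known change. Recovery was 32.8% at a ratio of 4 (67 genes), 89.6% at 16 (67 genes) and 100% at 64 (66 genes). Among the 150 calls made there 2 were false. Most genes planted at a ratio of 4 were thus missed, so failing the test is weak evidence against a change of that size. Alternatives were median-of-ratios scaling, library totals, DESeq2 1.42.0, limma 3.58.1 on log2(FPKM + 1), no filter, a minimum mean CPM of 5, only the groups compared, a replicate block, counts divided by 4, a gene length offset taken from the ratio of counts to FPKM, and leaving out each library.

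Named genes were the 15 with the largest change and the 15 with the smallest adjusted p per direction, up to 4 called genes per list and direction, and a set of regulators, the first 15 being limited to a CPM of at least 16; a gene that met the rule is not reported here. Members, lists and this rule were chosen with earlier results of these data known. Promoters were read from a RefSeq table with Python 3.11.15, pandas 2.3.3 and numpy 2.4.6, and figures were drawn with matplotlib 3.10.9.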

Additional observations from a re-analysis of the deposited data

How the results depend on the processing

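Numbers of genes called against E4.5 moved by less than 1.5 times with library totals (980), median-of-ratios scaling (1172), a minimum mean CPM of 5 (1697 genes called), counts divided by 4 (1554) and a gene length offset (1221). The count of 1201 became 3756 with DESeq2, 2670 with limma on FPKM, 2370 without a filter, 2212 in a fit of only the groups compared and 378 to 540 when a library was left out. The share of called genes that were higher was 59.8% with TMM and 27.9% with library totals, 44.4% with DESeq2, 24.5% with limma on FPKM and 50.1% without a filter. Against OVX, where 148 genes were called, there were 2339 with DESeq2, 295 with limma on FPKM, 384 with a minimum mean CPM of 5, 1417 without a filter, 0 in a fit of only the groups compared and 41 to 934 when a library was left out. Against starvation, where 50 were called, there were 1600 with DESeq2, 28 with library totals, 188 with limma on FPKM, 107 with a minimum mean CPM of 5, 827 without a filter, 0 in a fit of only the groups compared and 15 to 482 when a library was left out. Against reduced KSOM, where 1263 were called, there were 4080 with DESeq2, 1994 with limma on FPKM, 2652 without a filter, 4455 in a fit of only the groups compared and 121 to 225 when a library was left out. DESeq2 also called lower members in lists where the main edgeR fit called none lower. Among these were 3 of the ATF4 response, 2 amino acid transporters, 3 of the unfolded protein response and 2 of fatty acid oxidation. It called 1 lower each in mTORC1 sensing, lysosomal membrane proteins, V-ATPase subunits, the citric acid cycle and aminoacyl-tRNA synthetases. Lower members were called outside DESeq2 too. In the ATF4 response 3 were lower in the edgeR fit of only the groups compared and 2 with the gene length offset. With limma on FPKM 1 ATF4 response gene and 2 mTORC1 genes were lower. The causes were not tested. The common biological coefficient of variation was 0.9 with 2 libraries a group, so a gene that did not pass may still differ. The check of gene lengths over all genes tested is void, since 78.2% had a length. Among called genes 100% of the higher and 99.0% of the lower had one. The median length implied by counts and FPKM was 4245 bases in higher and 2954 bases in lower genes. The cause of this difference was not tested.

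Deviations by replicate number showed no shared pattern, which cannot exclude pairing, as the origin of the replicates is not stated. Same-numbered deviations correlated at -0.06 between depleted KSOM and E4.5, -0.02 against OVX, 0 against starvation and -0.04 against reduced KSOM over 9209 genes. With the replicate block 1008 genes were called against E4.5, 73 against OVX, 18 against starvation and 479 against reduced KSOM.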

Other observations

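Nuclear transport and chromatin genes, not described above, also held called genes, to be read against 5.51% called over all genes (3.29% higher and 2.21% lower). Of 46 nuclear pore and import genes 2 were higher and 2 lower (median log2 fold change -0.18), and 0 to 1 higher and 1 to 2 lower when a library was left out. Kpnb1, importin beta, had 45.1 and 44.0 CPM in depleted KSOM and 200.2 and 229 CPM in E4.5 (log2 fold change -2.27 ± 0.31, adjusted p = 0.00258), and Ipo7, another import receptor, had 22.7 and 21.2 CPM in depleted KSOM and 89.5 and 94.1 CPM in E4.5 (log2 fold change -2.07 ± 0.32, adjusted p = 0.00441). The Ipo7 call dropped out without depleted KSOM replicate 2 (adjusted p = 0.0505). Nup98, a mobile pore protein, had 104 and 109.8 CPM in depleted KSOM and 21.6 and 24.2 CPM in E4.5 (log2 fold change 2.22 ± 0.44, adjusted p = 0.0136). The Nup98 call dropped out without E4.5 replicate 1 or E4.5 replicate 2 (adjusted p up to 0.0957) and also with library totals. Both import receptors were lower and the pore protein higher in both depleted KSOM libraries. Of 32 genes of chromatin silencing and DNA methylation 1 was higher and 3 were lower, and 1 higher and 0 to 3 lower when a library was left out, Dnmt3b among them.

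Over all genes 5.51% were called, against which the counts of the signalling lists are to be read. Of 30 ERK immediate early and feedback genes 2 were higher and 2 lower (median -0.16), and 0 to 1 higher and 1 lower when a library was left out. Dusp4, a nuclear phosphatase of ERK, had 1.1 and 1.69 CPM in depleted KSOM and 22.0 and 22.7 CPM in E4.5 (log2 fold change -4.0 ± 0.61, adjusted p = 0.00409), lower in both depleted KSOM libraries with a call that held without any 1 library. Spry2, an inhibitor of receptor tyrosine kinase signalling, had 109 and 152 CPM in depleted KSOM and 23.5 and 30.4 CPM in E4.5 (log2 fold change 2.28 ± 0.50, adjusted p = 0.0205). The Spry2 call dropped out without E4.5 replicate 1, E4.5 replicate 2 or depleted KSOM replicate 2 (adjusted p up to 0.121) and also with library totals. Of 33 WNT pathway genes 1 was higher and 1 lower, and no WNT call remained whichever of the 4 libraries was left out. Of 31 BMP and TGF beta genes 0 were higher and 1 was lower, and 0 to 1 higher and 0 to 2 lower when a library was left out. Of 23 LIF and STAT3 signalling genes 1 was higher and 1 lower, and 0 higher and 0 to 1 lower when a library was left out. Of 15 Notch pathway genes 0 passed edgeR's quasi-likelihood test, with 3 at an unadjusted p under 0.05 and 2 higher and 0 lower called by DESeq2. Of 36 genes of the BCL2 family and caspases 3 were higher and 1 was lower, and 0 to 2 higher and 0 to 1 lower when a library was left out. Bid, a death agonist of that family, had 24.1 and 18.4 CPM in depleted KSOM and 2.82 and 2.13 CPM in E4.5 (log2 fold change 3.1 ± 0.66, adjusted p = 0.0188). The Bid call dropped out without E4.5 replicate 1, E4.5 replicate 2 or depleted KSOM replicate 1 (adjusted p up to 0.119).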
